A study of Mus musculus with 14 samples.

Results

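The m6A peaks of sham-operated mouse brain were taken as every entry of the authors' list of regions in which immunoprecipitated RNA (IP) exceeded input RNA within the sham group. The list held 48251 regions, beside 54754 for mice with an intracerebral haemorrhage (ICH, made with autologous blood) and 50105 for haemorrhage mice treated by acupuncture at GV20, a point on the head, on consecutive days, out of 153110 regions in the 3 lists. All groups were brain tissue of mice whose age and strain the labels did not give. In m6A sequencing, poly(A) RNA is broken into fragments, an antibody against N6-methyladenosine pulls down the fragments that carry it, and the pulled-down RNA is sequenced beside unselected fragments. Of the samples analysed here, 3 IP and 3 input libraries were sham, and each of the other groups had 2 and 2; which libraries entered each list is not stated. The peak lists carry 1 value per region for a whole group, so a peak's enrichment has no error between replicates here, and per-library values exist only for the input level of each gene, in FPKM. Read depth per library is unknown, since FPKM keeps no counts. The FPKM columns of the sham libraries were headed control and were matched to the sham labels by elimination. No label says that replicates came from different animals, and p-values therefore reflect only how far these libraries spread, which may be technical.

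N6-methyladenosine is the most common internal mark of messenger RNA. It is written co-transcriptionally by a complex built around METTL3 and METTL14, can be removed by FTO and ALKBH5, and is bound by reader proteins such as the YTH family, which act on splicing, decay and translation. In messenger RNA it is known to lie mostly in long internal exons, near the stop codon and in the 3′ UTR, at adenosines of the core motif GGAC and its relatives. In the brain the mark is abundant and has been tied to neuronal development, axon growth and synaptic plasticity.

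The tissue label held in the input libraries. Snap25 of neurons had 234, 283 and 227 FPKM in the 3 sham libraries, Mbp of oligodendrocytes 417, 335 and 420.2, and Aldoc of astrocytes 165, 135 and 159. Striatal genes were present, with Ppp1r1b at 129 ± 8.21 FPKM (SD, n = 3) and Drd1 at 14.3 ± 0.872, as was the choroid plexus gene Ttr at 460.2 ± 18.3. Red cell globins were present as well, Hbb-bs at 65.2, 114.65 and 129 FPKM and Hba-a1 at 62.6, 86.6 and 107, lowest in replicate 1 in both cases. The T cell genes Cd3e and Cd3g stayed at or under 0.0260 FPKM, while the neutrophil genes S100a8 and S100a9 had 3.08 ± 0.531 and 5.21 ± 1.12 FPKM (SD, n = 3). Of the skeletal muscle genes, Ckm was listed at 0 in all 3 libraries, Myh4 stayed at or under 0.0444 FPKM, and Acta1 had 3.17, 3.14 and 1.85 FPKM, lowest in replicate 3. The part of these cells in the peak list was not tested.

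Sequences were read where the peaks touch RefSeq entries. Of the 13235 genes that averaged 1 FPKM or more in the sham input libraries, 3076 began at exactly the base of a RefSeq start site of the same symbol (GRCm38.p6). In 591 of these a peak reached within 25 bases of the 5′ end of the gene without reaching the 3′ end, and in 133 that peak was enriched at least 4-fold, a log2 of IP over input of 2 or more, called strong from here on. With predicted genes and a chromosome that is not shown here left out, in 17 of those with a strong peak the first GGAC of the first 50 transcribed bases lay inside the peak. The 6 with the highest enrichment are shown as windows of 30 bases of the transcribed strand, 5′ to 3′, with the GGAC in capitals.
Kcnj3, chr2:55435970-55435999, plus strand: ctccatccatccgGGACaagcaaagggcgg
Kcnk12, chr17:87797945-87797974, minus strand: ataggggaggaacaGGACtgctcgcacagc
Pcdh17, chr14:84443580-84443609, plus strand: ggggagagaatccGGACtgcgagcccggcg
Klf9, chr19:23141232-23141261, plus strand: gcgcggcgcggcaGGACcaggggctcagcg
Tspyl1, chr10:34282210-34282239, plus strand: gcggagctggggttgcgggGGACcgtgagg
Obsl1, chr1:75506403-75506432, minus strand: tcgctgagcaggcaaacaggaaGGACagcc
The log2 of IP over input of these peaks was 3.80 on Kcnj3, a subunit of G protein-gated potassium channels, 3.39 on the potassium channel gene Kcnk12, 3.31 on the protocadherin gene Pcdh17, 3.12 on the transcription factor gene Klf9, 3.08 on Tspyl1 and 3.02 on Obsl1. The peaks spanned 159911 bp on Kcnj3, 25369 bp on Klf9 and 2875 bp on Tspyl1, all labelled 3′ UTR by the authors, and 672 to 3200 bp on the other 3, labelled 5′ UTR, so a window shows 1 GGAC under a peak and not the site of the mark. GGAC and a first adenosine did not set such genes apart. GGAC stood in the first 50 transcribed bases of 20.3% of the 591 genes (95% Wilson interval 17.3 to 23.7, counting error only). The share was 16.5% of the 133 with a strong peak (11.2 to 23.8) and 19.0% of the other 2485 of the 3076 genes (17.5 to 20.6). Of all 32851 entries of the RefSeq table it was 18.9%. An adenosine was the first transcribed base in 29.8% of the 591 (26.2 to 33.6) and 27.1% of the 2485 (25.4 to 28.9). For the 133 it was 29.3% (22.3 to 37.6). A first cytosine stood in 21.1% of the 133 and 13.8% of all 3076, a difference that was not tested. GGAC was searched on the transcribed strand only, and its absence from this window says only that these letters are not there.

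MicroRNA genes also lay under peaks. Of 1005 hairpins of the RefSeq table, 31 were wholly inside a sham peak that spanned at most 1000 bp, 10 of them in peaks the authors labelled as 3′ UTR and 8 in peaks assigned to the microRNA gene itself. All of the latter are shown, each with 1 mature form and its seed, bases 2 to 8, in capitals, because these peaks are assigned to the microRNA gene and not to a host gene.
miR-6340: gUCAGCAGcagcuucgcuuuggc
miR-6363: uGUAGACUggacuguccucaaa
miR-6244: gGGGGCGUggaauuaucgggu
miR-29c-3p: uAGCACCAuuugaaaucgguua
let-7b-5p: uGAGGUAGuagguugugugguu
miR-9b-5p: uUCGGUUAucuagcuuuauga
miR-770-5p: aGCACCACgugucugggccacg
miR-433-3p: aUCAUGAUgggcuccucggugu
The 3 with the highest log2 of IP over input were Mir6340 (3.90), Mir6363 (3.67) and Mir6244 (2.76), all strong. The peak over Mir29c (chr1:195037547-195037634) had a log2 of IP over input of 1.23, the one over Mirlet7b (chr15:85707319-85707403) 1.09, and the one over the miR-9b hairpin 1.37. Those over Mir770 and Mir433, both in the imprinted cluster that also holds Meg3 and Rian, had 0.76 and 0.74. The 53 mature forms of the 31 hairpins had 52 different seeds, so no seed family stood out. GGAC occurred in 9 of the 31 hairpins (29.0%, Wilson interval 16.1 to 46.6) and in 24.5% of all hairpins in the table. The peaks are listed on the genome and cannot tell a hairpin from the longer RNA around it.

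Most peaks lay toward the end of the transcript. By the authors' annotation, 26311 peaks (54.5%) were in 3′ UTRs, 9685 (20.1%) in coding exons, 5609 (11.6%) in 5′ UTRs, 4247 (8.80%) in exons of non-coding RNAs and 2239 (4.64%) in introns. Unlabelled, downstream, intergenic and upstream regions made up the rest, with 51, 48, 40 and 21 peaks. Peaks in 3′ UTRs and 5′ UTRs were enriched to like degrees, with a median log2 of 1.16 and 1.09, while peaks in coding exons and introns had medians of 0.80 and 0.81. Peaks in non-coding exons had the highest median, 1.43, and 32.6% of them were strong, against 16.9% in 3′ UTRs, 14.1% in 5′ UTRs, 7.52% in coding exons and 5.58% in introns. The commonest place was thus not the most enriched.

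**Figure D1:**
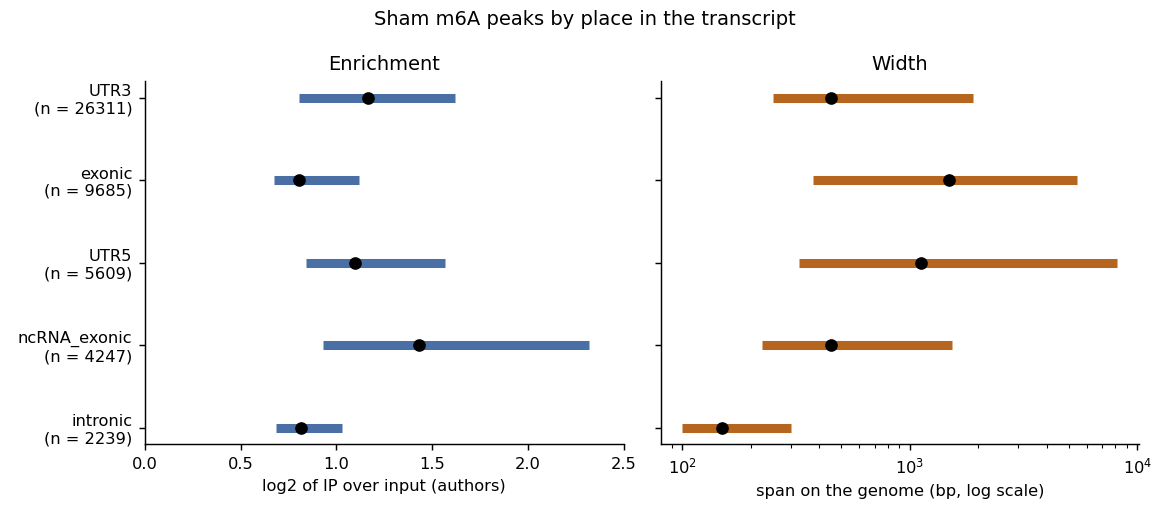
Log2 of IP over input (left) and span on the genome in bp on a log axis (right) of sham peaks in the 5 main places of the authors' annotation; dots are medians and bars run from the first to the third quartile over peaks. Non-coding exons have the highest median enrichment (1.43), and intronic peaks are the narrowest (median 150 bp).

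Counted by gene, the 3′ UTR label again came first. Of the 12461 genes at 1 FPKM or more that carried a peak, 11472 (92.1%) had at least 1 labelled 3′ UTR, 4747 (38.1%) coding exon, 4490 (36.0%) 5′ UTR and 1545 (12.4%) intron. The most enriched peak of the gene was labelled 3′ UTR for 9467 genes (76.0%) and 5′ UTR for 1256 (10.1%). The label does not confine a wide peak to that place. Of the 3321 peaks that reached within 25 bases of the 5′ end of a gene, 475 (14.3%) were labelled 3′ UTR. A peak reached within 25 bases of the 3′ end in 80.9% of these genes and within 25 bases of the 5′ end in 21.2%, and 2122 genes (17.0%) had both.

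Peaks at the ends were more enriched than peaks between them. The 11241 peaks that reached only the 3′ end had a median log2 of 1.32, the 2810 that reached only the 5′ end also 1.32, and the 33580 that reached neither 0.90. Strong peaks made up 17.2%, 26.2% and 13.3% of these. A further 511 peaks ran from one end of the gene to the other, with a median log2 of 2.47, and 66.9% of them were strong. Of these, 287 lay on non-coding RNAs and 210 were labelled 3′ UTR. Jund, a transcription factor gene of the AP-1 family, is an example among coding genes, with 1 peak of log2 2.97 over its 1668 bp, on 43.0, 46.0 and 44.2 FPKM. Kcnj4, an inward rectifier potassium channel, is another, with 1 peak of log2 4.66 over its whole span of 21526 bp, on 41.2, 45.2 and 39.7 FPKM in the 3 libraries.

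Narrow peaks crowded the last stretch of the gene. Among 25928 peaks that spanned at most 1000 bp on genes of at least 5000 bp, 49.0% had their midpoint in the last 5% of the gene span and 8.64% in the first 5%, while each 5% bin from 5% to 75% of the span held between 1.06% and 2.56%. The median log2 was 1.08 in the last bin, 1.05 in the first and between 0.78 and 0.93 in the bins between them. The gene span counts introns, so these positions are on the genome and not on the spliced transcript.

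**Figure D2:**
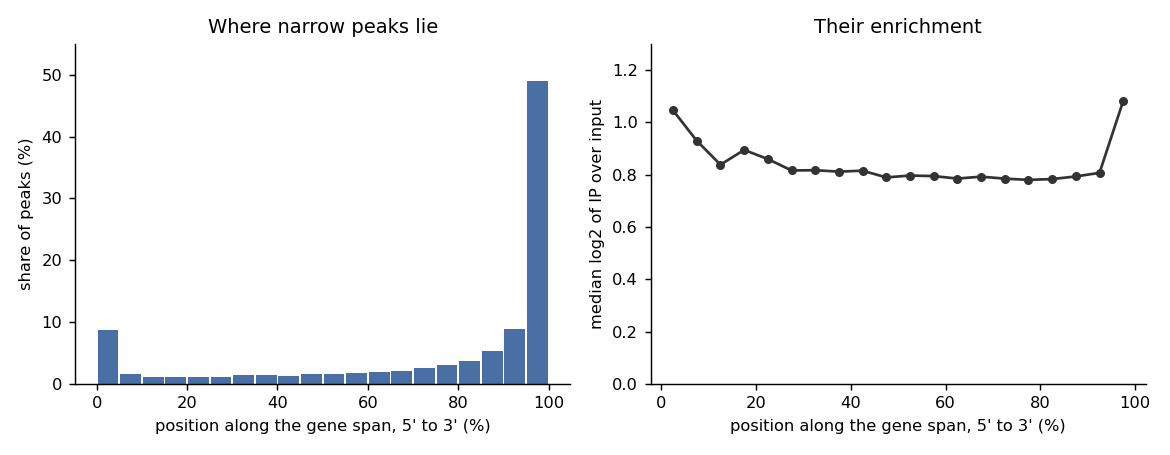
Share of narrow sham peaks (left, in %) and their median log2 of IP over input (right) by position of the peak midpoint along the gene span in bins of 5%, from the 5′ to the 3′ end. The last bin holds 49.0% of the peaks, and enrichment is higher in the first and last bins (1.05 and 1.08) than between them.

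Peaks differed greatly in width. The median span was 525 bp and the quartiles 250 and 2763 bp. Of all peaks, 61.5% spanned at most 1000 bp, 28.2% between 1000 and 10000 bp and 10.3% more than that. A span counts introns, because the files give no exon blocks: coding exon peaks had a median span of 1482 bp and 5′ UTR peaks of 1125 bp, against 450 bp in the 3′ UTR and 150 bp in introns. Wider peaks were more enriched. The share of strong peaks was 4.96% among peaks of at most 200 bp, 14.0% from 500 to 1000 bp, 25.2% from 1000 to 3000 bp and 32.6% above 10000 bp. Of the 7492 strong peaks, 2313 (30.9%) spanned at most 1000 bp.

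Enrichment was moderate for most of the list. The median log2 of IP over input was 1.07, about 2-fold, with quartiles of 0.76 and 1.55. At least 2-fold enrichment held for 26323 peaks (54.6%), and 2369 peaks (4.91%) reached a log2 of 3. The most enriched peaks leaned toward genes of low input. Genes under 1 FPKM carried 16.8% of the 47844 peaks on genes of the FPKM table, 38.7% of the strong ones and 79.8% of the 89 with a log2 of 5 or more. The read depth behind those peaks is unknown.

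Peaks were near universal on expressed genes. The list assigned 48142 peaks to 17083 genes, of which 16836 were among the 31507 of the FPKM table. Of genes at 1 FPKM or more, 94.2% carried a peak and 29.4% carried a strong one. The share with a peak was 6.99% below 0.1 FPKM, 31.8% from 0.1 to 0.3, 70.3% from 0.3 to 1, 89.1% from 1 to 3 and between 95.3% and 96.7% in every class above 3 FPKM. The share with a strong peak rose from 3.17% below 0.1 FPKM to 35.3% from 1 to 3 FPKM. Above that it fell, to 32.2% from 3 to 10, 23.2% from 10 to 30, 13.5% from 30 to 100 and 8.47% at 100 FPKM or more. Across the 12461 genes the Spearman correlation of input level with the strongest peak was -0.19, as a description over genes of the same libraries.

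**Figure D3:**
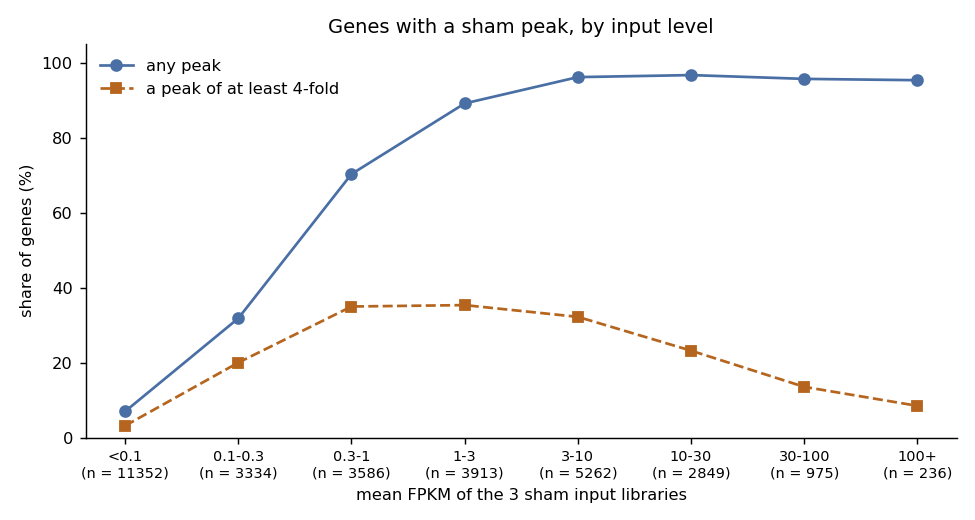
Share of genes (in %) with any sham peak (circles) and with a peak of at least 4-fold (squares), by mean FPKM of the 3 sham input libraries. Any peak reaches 96.2% at 3 to 10 FPKM and stays near that level, while the share with a 4-fold peak falls from 35.3% at 1 to 3 FPKM to 8.47% at 100 FPKM and above.

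The 12 most abundant genes with a peak carried 1 to 4 peaks, none of them strong. Calm2, a calmodulin gene, had 754, 832 and 743 FPKM and 3 peaks, the strongest with a log2 of 1.04. The ubiquitin gene Ubb had 2 peaks up to 1.10 on 712 ± 8.04 FPKM (SD, n = 3), and the elongation factor gene Eef1a1 1 peak of 1.07 on 637 ± 32.7 FPKM. Nrgn, a calmodulin-binding protein of dendrites, stood at 534, 718 and 506 FPKM, highest in replicate 2, with a strongest peak of 1.14. Among the 12 most abundant genes with a peak, Psap, the precursor of the saposins, had the strongest, 1.66 in the 5′ UTR. The lowest value for the strongest peak of a gene was 0.82, on Rplp1.

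The number of peaks followed the size of the gene. Genes with a peak had a median of 2 and a mean of 2.82. A single peak was found in 5343 genes (31.3%), at least 5 in 2839 (16.6%) and at least 10 in 192 (1.12%). The median gene span was 8.07 kb for genes of the FPKM table with 1 peak, 27.5 kb with 3 or 4 and 123.75 kb with 10 or more, and the Spearman correlation of span with number over 12461 genes was 0.50. With input level it was -0.02.

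Large cytoskeletal and chromatin genes led the count. Syne1, a giant protein that links the nucleus to the cytoskeleton, had 26 peaks on 9.35, 9.73 and 9.26 FPKM, 19 of them in coding exons, with log2 values from 0.52 to 3.76 and a median of 0.77. Its only strong peak was 1 of its 4 in the 3′ UTR. Ank2, an ankyrin of axons, had 23, Dst, a plakin, 20, and Macf1, a linker of actin and microtubules, 16. Kmt2d, a histone H3 methyltransferase, had 19 on a gene of only 39.5 kb, 13 of them in coding exons. Itsn1, an endocytic scaffold, differed in place, with 10 of its 17 peaks in the 3′ UTR. Galnt2l was listed with 23 peaks, all labelled intronic and spread over a gene model of several megabases on chromosome 8, from 119910841 to 124345722. It is not in the FPKM table, and other genes lie within that model, so its count is uncertain.

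Coding genes and long non-coding RNAs mostly carried peaks, while pseudogenes and small RNAs did so less often in these counts. Of the genes at 1 FPKM or more, RefSeq lists 11691 as protein-coding by symbol, and 98.8% of these carried a peak. Of 322 long non-coding RNAs, 88.8% did, and 35.4% had a strong peak, against 31.1% of the coding genes. Of 588 pseudogenes, 49.5% carried a peak and 7.31% a strong one. Of 44 microRNA genes 2 carried a peak, and of 33 small nucleolar RNAs 4. Pseudogenes and their parent genes are near-identical, so reads and peaks could be split between them.

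Genes that write, erase and read the mark carried peaks themselves wherever they were expressed at 1 FPKM or more, as did 98.8% of protein-coding genes at that level. All 10 writer genes at 1 FPKM or more had a peak, and 5 had a strong one, beside 94.2% and 29.4% of all genes. Mettl3, the catalytic subunit, had 3 peaks up to a log2 of 1.11 on 2.65, 2.58 and 2.72 FPKM, and its partner Mettl14 5 peaks up to 1.16 on 2.56, 2.27 and 2.71 FPKM. The strongest peaks of these 2 core subunits were thus the lowest such values among the writer genes, and spanned 250 and 1375 bp. The adaptor genes reached higher values in wider peaks, of 3600 to 19804 bp: Rbm15 reached 3.22, Rbm15b 3.06, Wtap 2.82, Virma 2.22 and Cbll1 2.06. In narrow peaks of at most 1000 bp, 0 of the 10 writer genes had a strong one. Zc3h13 reached 1.94, and the methyltransferases of other substrates Mettl5, Zcchc4 (0.798 FPKM) and Mettl16 1.65, 1.83 and 1.43.

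All 12 eraser and reader genes at 1 FPKM or more had a peak, and 3 (25%) had a strong one, beside 94.2% and 29.4% of all genes. Of the erasers, Fto had 4 peaks up to 1.71 on 10.9 ± 0.757 FPKM (SD, n = 3), and Alkbh5 4 peaks up to 1.12 on 8.79, 8.38 and 9.27 FPKM. Among the readers, the nuclear Ythdc1 had the most peaks, 9, and the strongest, 3.11, in a coding exon. The cytoplasmic Ythdf3, Ythdf2 and Ythdf1 reached 3.01, 2.78 and 1.92, and Ythdc2 1.06. Hnrnpa2b1, at 67.1 ± 1.82 FPKM the most abundant reader, had 7 peaks up to 1.39, Prrc2a 3 up to 1.43, Fmr1, the fragile X gene, 4 up to 1.32, Hnrnpc 3 up to 1.29 and Elavl1 3 up to 0.87. Igf2bp1 and Igf2bp2 averaged 0.00847 and 0.170 FPKM and had no peak, while Igf2bp3, at 0.0103 FPKM, was listed with 2.

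Gene classes differed in strength more than in presence. Of 32 gene lists, most had a peak on every member at 1 FPKM or more, and the median share over the 31 lists with at least 5 such members was 100%. Strong peaks ranged from none to 66.2%, against 29.4% of all genes. They were found on 198 of 299 Zfp zinc finger genes (66.2%), on 35 of 54 semaphorin, plexin, ephrin and Eph genes of axon guidance (64.8%), on 22 of 34 chromatin regulators (64.7%), on 38 of 66 potassium channel genes (57.6%) and on 18 of 32 neural transcription factors (56.25%). In the last of these, Neurod6 of cortical neurons had a single peak of 3.06 on 15.4, 26.2 and 18.6 FPKM, while Olig1 reached 1.34 and Mef2d 1.18. Of the axon guidance genes, Sema7a reached 3.22 and Sema6b 2.11, while Efnb3 reached 1.03.

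Synaptic genes were described by compartment, with no test between lists. On the receiving side, 14 of 26 postsynaptic scaffold genes (53.8%) and 17 of 36 glutamate and GABA receptor genes (47.2%) had a strong peak, with Camk2b, a kinase subunit of the postsynapse, at 3.92 in an intronic peak and Dlgap3 at 2.33. On the releasing side it was 8 of 34 genes (23.5%), and the most abundant of them, Cplx1, Snap25, Syp and Cplx2, reached 1.15, 1.29, 1.12 and 1.43. In narrow peaks of at most 1000 bp this order was not seen: strong ones were on 0 of 26 scaffold, 2 of 36 receptor and 2 of 34 release genes. The median level was 39.9 FPKM for release genes, 19.2 for scaffolds and 13.7 for receptors. Of 20 striatal genes 11 had a strong peak, among them Drd1 (2.82), Adora2a (2.75) and Drd2 (2.39), while Penk and Ppp1r1b, the 2 most abundant, reached 0.91 and 0.85.

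Strong peaks were scarce in 7 further lists. None of 35 proteasome subunit genes had a strong peak although all carried one, with a highest value of 1.90. Strong peaks were found on 5 of 95 nuclear genes of oxidative phosphorylation (5.26%), 1 of 24 neuropeptide genes (4.17%), 1 of 18 myelin genes (5.56%), 1 of 16 glycolysis genes (6.25%), 2 of 22 translation factors (9.09%) and 8 of 88 cytosolic ribosomal protein genes (9.09%). Mitochondrial ribosomal protein genes had more, 14 of 78 (17.9%), among them Mrpl41 at 3.82 on 36.2, 30.4 and 33.8 FPKM. Mbp and Mobp of myelin reached 1.44 and 1.26, and Sst, Cck and Chgb among the peptides 1.09, 1.16 and 1.21. The 7 lists had median levels between 12.4 FPKM for neuropeptides and 99.1 for glycolysis, and the share of strong peaks over all genes was 23.2% from 10 to 30 FPKM and 13.5% from 30 to 100.

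The spread between lists lay in the wide peaks. Counting only strong peaks that spanned at most 1000 bp, the share was 5.12% of all genes, 5.02% of Zfp genes, 5.56% of axon guidance genes, 5.88% of chromatin regulators and 6.06% of potassium channels, beside 6.82% of ribosomal protein genes and 3.16% of oxidative phosphorylation genes. The order among these classes did not hold in narrow peaks. Histone genes had the highest share in this count, 19.0% of 21. Whether the width of the strong peaks comes from long exons or from introns inside them was not tested, for want of exon blocks.

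**Figure D4:**
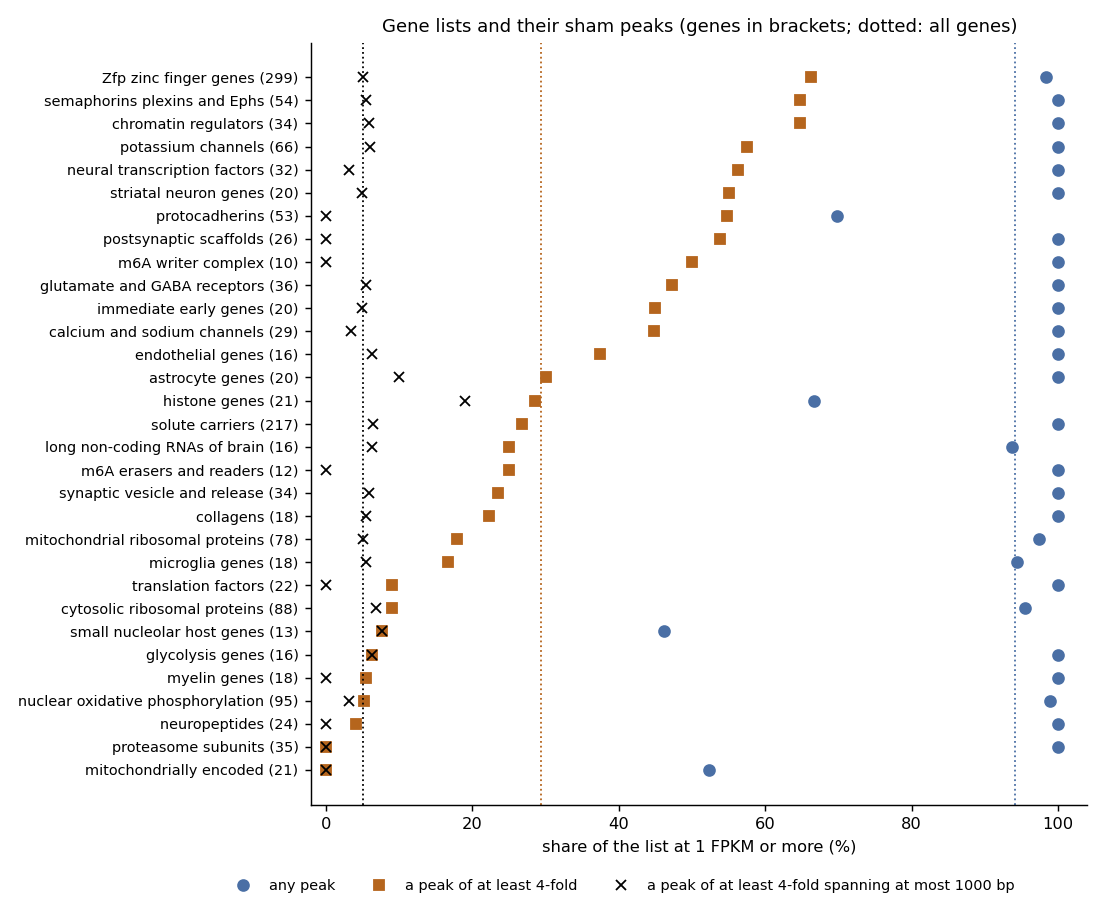
Share of each gene list at 1 FPKM or more (in %; number of genes in brackets) with any sham peak (circles), with a peak of at least 4-fold (squares) and with such a peak spanning at most 1000 bp (crosses); dotted lines give all genes (94.2%, 29.4% and 5.12%). The squares spread from 0 to 66.2% while the crosses stay at or under 10% except for histone genes (19.0%).

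A few lists had members without any peak. Among 21 mitochondrially encoded genes, 11 carried one, and none was strong: mt-Co2 reached 1.64 on 24.2, 40.1 and 33.7 FPKM, while mt-Co1, at 58.5, 64.9 and 64.4 FPKM, had none. Of 21 histone genes 7 had none, among them H2bu2 at 16.2 ± 0.640 FPKM. All 16 protocadherin genes without an assigned peak (of 53) were overlapped by a sham peak on the same strand that the list gave to another gene, and so were all 7 of the 13 small nucleolar host genes without one, such as Snhg8 and Snhg12. Genes of these families overlap on the genome, so the assignment of a peak to 1 of them is uncertain. Strong peaks were present on 29 of the 53 protocadherins.

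Long non-coding RNAs of brain were marked in very different ways. Meg3, an imprinted RNA, had 239, 208 and 223 FPKM and 10 peaks from 0.55 to 3.67, of which 2 were strong. Its neighbour Rian had 13 peaks on 19.7, 18.7 and 19.2 FPKM, none above 1.21. Kcnq1ot1, an imprinted antisense RNA, had 16 peaks up to 5.27, 6 of them strong, on only 0.299, 0.266 and 0.312 FPKM. The nuclear RNAs Malat1 and Neat1 had 4 peaks up to 1.54 and 1 of 2.15, on 139.5 and 4.89 FPKM. Pantr1 reached 3.19, Dlx6os1 3.53, Snhg14 1.86, Tug1 1.84, Miat 1.31 and Gas5 0.66, the last in its only peak.

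Few well-expressed genes lacked a peak, and most of them were not ordinary coding genes. Of 4060 genes that averaged 10 FPKM or more in the sham input libraries, 147 (3.62%, Wilson interval 3.09 to 4.24) had no peak assigned. RefSeq lists 85 of these as pseudogenes and 7 as transcribed pseudogenes, 25 as protein-coding, 4 as long non-coding and 3 as microRNA genes, 1 as a guide RNA, and 22 were not matched by symbol. Pseudogenes made up 150 of the 4060. For 41 of the 147, a sham peak assigned to another gene overlapped on the same strand, which left 106 with none.

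Without a peak, the most abundant named genes were ribosomal protein pseudogenes and globins. Rpl21-ps15 had 133, 119 and 139 FPKM, Rps27a-ps2 120.3, 118 and 93.7, and Rpl14-ps1 81.1, 81.0 and 82.5. The red cell genes Hbb-bs (103 ± 33.4 FPKM, SD, n = 3) and Hba-a1 (85.5 ± 22.4) had none, while another globin gene, Hbb-bt, at 34.6 ± 12.4 FPKM, had 2 up to 1.37. Hba-a1 had a peak in the ICH list and Hbb-bs in neither of the others. How reads were shared between globin genes was not tested. Only 15 protein-coding genes had neither an assigned nor an overlapping peak. Among them Dstn, an actin-depolymerising factor, had 64.9, 64.4 and 63.0 FPKM, and Ppp2cb, a catalytic subunit of protein phosphatase 2A, 43.2, 50.0 and 45.6 FPKM. Dstn had a peak in the ICH list and Ppp2cb in neither of the others. Also without one were Eno1b, Rps27rt and Gstp2, whose reads may be shared with near-identical genes, and Cmip, Adam9 and Eif5a2. Pde2a, at 50.4 ± 3.63 FPKM, and the imprinted RNA Peg13, at 52.5 ± 2.30, had no assigned peak but were overlapped by 1 that was assigned elsewhere.

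The sham list was compared with the other lists by position. A sham peak was counted as shared when it overlapped a peak of another list by at least 1 bp on the same strand. Of the 48251 sham peaks, 38693 (80.2%) overlapped an ICH peak, 36940 (76.6%) an acupuncture peak and 33983 (70.4%) both. The 6601 that overlapped neither (13.7%, Wilson interval 13.4 to 14.0) are called sham-only. By the same count 9473 ICH peaks (17.3%) and 5573 acupuncture peaks (11.1%) stood alone, so the sham share lay between those of the other groups, which has 3 libraries of each kind here against 2. Absence from a list is not a test of a difference.

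Sham-only peaks were weaker and narrower than shared ones. Their median log2 of IP over input was 0.77 (quartiles 0.65 and 1.02), against 1.13 for shared peaks (0.80 and 1.63), and their median span 250 bp against 600 bp. The share of peaks that were sham-only was 26.6% below a log2 of 0.75, 17.4% from 0.75 to 1, 7.47% from 1 to 1.5, 5.80% from 1.5 to 2, 4.88% from 2 to 3 and 6.75% above. By width it was 31.3% up to 200 bp, 10.9% from 200 to 500 bp, 6.49% from 500 to 1000 bp, 9.57% from 1000 to 10000 bp and 7.99% above. By place it was 8.69% in 3′ UTRs, 12.4% in 5′ UTRs, 15.9% in non-coding exons, 23.2% in coding exons and 30.3% in introns. Only 3.42% of sham-only peaks reached the 3′ end of their gene, against 27.7% of shared peaks.

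**Figure D5:**
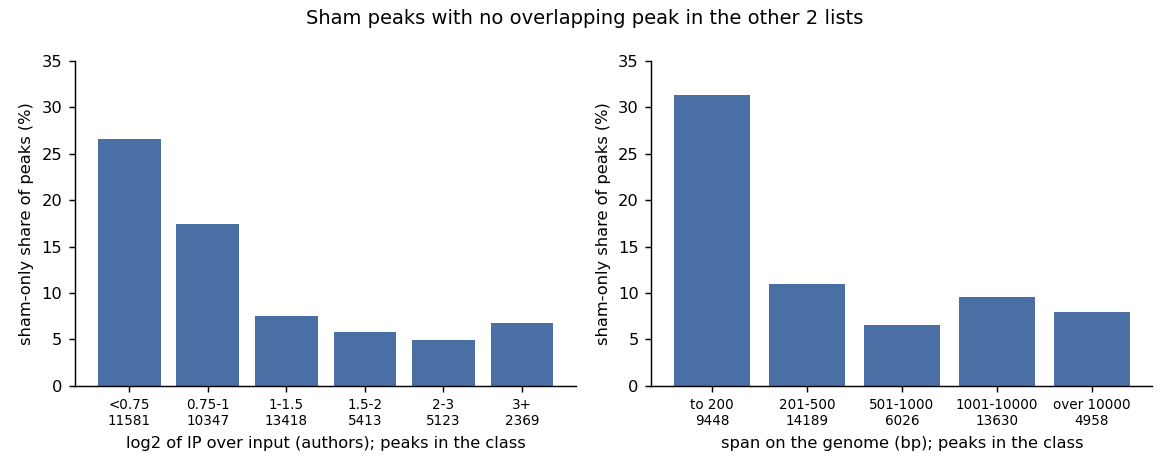
Share of sham peaks (in %) that overlap no peak of the other 2 lists, by log2 of IP over input (left) and by span on the genome (right); the number of peaks in each class is under its bar. The share falls from 26.6% below a log2 of 0.75 to 4.88% between 2 and 3 and is 6.75% above, and by span it is 31.3% up to 200 bp, 6.49% from 500 to 1000 bp and 9.57% from 1000 to 10000 bp.

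The genes were mostly the same. Of the 6584 sham-only peaks with a gene, 5944 (90.3%) lay on a gene that also had a shared sham peak, and 471 (7.15%) on the 403 genes with a peak in the sham list and in neither other list. Those 403 had a median of 0.262 FPKM where the level was given, and 57 of 361 reached 1 FPKM. Sham-only peaks made up 21.7% of the 263 peaks of chromatin regulators and 21.6% of the 74 of striatal genes, beside 13.0% over all genes at 1 FPKM or more. They were 30.8% of the 13 peaks of mitochondrially encoded genes, the highest share among the lists. They were 4.17% of the 192 peaks of oxidative phosphorylation genes and 4.64% of the 151 of ribosomal protein genes. Coding exon peaks were 50.6% of the peaks of chromatin regulators and 17.6% of those of striatal genes, against 20.9% over all genes at 1 FPKM or more.

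By enrichment, the foremost sham-only peaks lay on genes of low to moderate level. Ranked among peaks with an adjusted p under 0.05, a span of at most 1000 bp and at least 1 FPKM in each sham library, the highest was on the predicted non-coding gene Gm21596, with a listed log2 of 21.2 over 225 bp. The list does not give the input behind it, and so large a value cannot be read as a measured fold. Next among all peaks under these conditions came 6.72 on Zxdb, which was shared with both other lists. Lrrc1 had an intronic peak of 6.31, Gm14296 one of 5.11 in the 3′ UTR and Sgpl1, the lyase that degrades sphingosine phosphate, one of 4.94 in the 5′ UTR. Adra2c, an alpha-2 adrenergic receptor, had one of 4.44 (chr5:35278469-35278893, 5′ UTR). Rnaset2b (4.39), Tomm40l (4.14), Zfp286 (3.67), Hacd1 (3.44), Steap2 (3.44) and Sfxn5 (3.41) followed, along with a second peak of Gm21596 (4.05), Gm5537 (3.47) and 2810410L24Rik (3.49).

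Input levels of these genes were compared between the 3 sham libraries and the 4 haemorrhage libraries. Of 13666 genes tested, 1102 (8.06%) were higher and 350 (2.56%) lower with a haemorrhage (limma on log2(FPKM + 1), Benjamini-Hochberg adjusted p under 0.05). Of the 3696 tested genes with a sham-only peak, 258 (6.98%) were higher and 84 (2.27%) lower, near the background in both directions. The counts moved with every library: left out in turn, the lower count ran from 21 (without sham replicate 1 or 3) through 49 and 52 (without an acupuncture library or sham replicate 2) and 185 (without ICH replicate 2) to 335 (without ICH replicate 1), and the higher count from 143 (without sham replicate 1) to 667 (without ICH replicate 1). Over all genes, 1928 were lower and 2208 higher without ICH replicate 1, and the members then differed from the background, with 9.05% lower against 14.1% of all genes and 18.01% higher against 16.1%. In the other omissions the members' lower share ran from 0.568% to 5.02%, against 0.576% to 4.81% of all genes, and the higher share from 3.87% to 9.12%, against 5.09% to 11.3%. Adra2c was among the lower, with 5.20, 4.38 and 4.40 FPKM in sham, 3.05 and 1.63 in ICH and 3.25 and 2.30 in acupuncture. Its log2 change was -0.69 (SE 0.17, limma adjusted p = 0.0468), and all 4 haemorrhage values lay below all 3 sham values. The call was lost without any 1 of the sham libraries or of the acupuncture libraries (limma adjusted p from 0.0704 without acupuncture replicate 1 to 0.182 without sham replicate 1). Sgpl1 rose from 5.23, 4.21 and 4.46 FPKM to 8.36 and 6.03 in ICH and 10.6 and 9.83 in acupuncture, a log2 change of 0.76 (SE 0.12, limma adjusted p = 0.00863), and kept its call without any single library. Rnaset2b rose from 2.88, 3.47 and 3.75 to 6.05 and 9.48, and 5.45 and 6.60 FPKM, a log2 change of 0.83 (SE 0.16, limma adjusted p = 0.0169). Its call was lost without sham replicate 1 (limma adjusted p = 0.0807), sham replicate 2 (0.0594) or acupuncture replicate 2 (0.0643). For Tomm40l the log2 change was -0.36 (limma adjusted p = 0.392). The other tested genes of the 15 foremost sham-only peaks were not called either. Their limma adjusted p ran from 0.332 on Gm5537 to 0.984 on Sfxn5. Lrrc1 was not tested.

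The authors' deposited tables of differential peaks bear on the same regions. Of all sham peaks, 8.04% overlapped only entries lower in ICH than in sham, at an adjusted p of the authors under 0.05, and 29.3% only entries higher. In the authors' deposited table of acupuncture against sham the shares were 8.96% lower and 10.5% higher. Of the sham-only peaks, 196 of 6601 (2.97%) overlapped only lower and 70 (1.06%) only higher entries for ICH, and 496 (7.51%) and 19 (0.288%) for acupuncture, in the authors' deposited tables. No called difference was overlapped by 95.97% and 92.2% of sham-only peaks, against 62.5% and 80.5% of all sham peaks, for ICH and acupuncture. Most had no entry that could be called: 334 and 911 of the 6601 sham-only peaks overlapped any entry of the authors' deposited tables, against 20529 and 14406 of all 48251. Strong sham peaks overlapped lower entries more often than all sham peaks did, 1632 of 7492 (21.8%) for ICH and 1481 (19.8%) for acupuncture in the authors' deposited tables. Both comparisons share the sham libraries, and the same sham values chose the strong peaks, so these shares are a description.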

How the data were processed

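Members, gene lists and tests were chosen with earlier results of these data known. Peaks were listed per group, not per sample; the log2 of IP over input, the p-value and the adjusted p-value are the authors' deposited values, and how libraries were scaled is not stated. Per the submitters' processing notes, fastp, HISAT2, HOMER, StringTie and edgeR were used, with no versions or roles; which program called peaks was not found in them. Those notes list GRCh38, a human build, but identifiers are of mouse genes. Symbols linked 25299 genes to RefSeq GRCm38.p6, and 96.3% had the chromosome and a boundary (to 1000 bp) in common, so GRCm38 was taken as the build. Peak starts count from 0 in the files and were raised by 1; span is end minus start as deposited. All listed p-values were under 0.05, and 99.9% of the sham peaks had an adjusted p under 0.05. The FPKM table, computed by the authors per the file headers, has 7 input libraries; 2 further columns that matched no sample were not used here.

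Genes took the authors' peak assignment. Named genes follow fixed rules: the 15 genes with most peaks, the 12 strongest peaks, the 20 most abundant named genes without and the 12 with a peak, all writers, erasers, readers and listed long non-coding RNAs, up to 4 members with and 3 without a peak per other list, and the 15 strongest sham-only peaks; from these a selection is printed, some genes the rules name are not reported here, and a few further members were named after their values were seen. For input levels limma 3.58.1 (R 4.3.3) was run on log2(FPKM + 1), pseudocount 1, for genes averaging 1 FPKM or more across the 7 libraries, as the mean of the ICH and acupuncture means against sham, two-sided; the pipeline was tested on simulated data. Shares carry Wilson intervals where printed, which cover counting error only. Depth is unknown from FPKM. Alternatives changed the peak thresholds, level cut-offs, overlap rule and limma settings, and left out each input library; IP libraries could not be left out of a group's list. Python 3.11.15, pandas 2.3.3, numpy 2.4.6, scipy 1.17.1 and matplotlib 3.10.9 were used.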

Additional observations from a re-analysis of the deposited data

How the results depend on the processing

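The enrichment and width a peak must have moved most values. With only peaks of a log2 of at least 1, 86.0% of genes at 1 FPKM or more had a peak, 537 well-expressed genes had none, 1727 peaks were sham-only and the median share over the gene lists was 94.3%. The shares by place were then 62.0% for 3′ UTR, 11.5% for coding exon, 12.3% for 5′ UTR, 11.5% for non-coding exon and 2.33% for intron. With only peaks of at most 1000 bp the values were 79.5% of genes, 639 without a peak, 5.12% with a 4-fold peak and a list median of 80%, and the places 59.4%, 13.8%, 9.16%, 9.85% and 7.24%. The well-expressed genes without a peak were 245 at 5 FPKM, 79 at 20 FPKM, 93 when a peak in any of the 3 lists counted and 25 among protein-coding genes, and from 146 to 148 without each sham input library in turn. Sham-only peaks numbered 10091 when 50% of the span had to be covered. Coding exons, ahead of 5′ UTRs in the full list, fell behind them at a log2 of at least 1, and non-coding exons passed 5′ UTRs in narrow peaks.

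Of genes with a sham-only peak, limma called 133 lower after quantile normalization (3.599%, against 3.81% of all genes) and 43 with the haemorrhage libraries joined as 1 group (1.16% against 1.51%). With a replicate block it called 19 lower (0.514% against 0.622%) and 137 higher (3.71% against 4.71%), but the numbers do not pair the libraries: deviations of same-numbered libraries correlated from -0.0149 to 0.0941, and sham replicate 3 has no partner. Leaving out each library gave 21 to 335 lower and 143 to 667 higher. Adra2c also lost its call with a pseudocount of 0.1 (limma adjusted p = 0.0557) and without the filter (0.114), and Rnaset2b without the filter (0.0512). The cause of these moves was not tested. Among the alternatives added after seeing the data were the protein-coding count, the overlap of the gene span (106 genes) and the 4-fold share in narrow peaks. Width and overlap over exon blocks were not computed, since the peak lists used here give none. Read depth is unknown, and enrichment has no replicate error.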
